A study of Mus musculus with 8 samples.

Results

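Laminins are the cross-shaped glycoproteins on which basement membranes are built. Each is a trimer of an alpha, a beta and a gamma chain: the alpha chain carries the main sites for cell receptors, and the beta and gamma chains form the rest of the cross. Cells hold on to laminin through dystroglycan, encoded by Dag1, and through integrins such as the pair of alpha 6 and beta 1, encoded by Itga6 and Itgb1. In the optic nerve (ON), astrocyte endfeet, blood vessels and meningeal fibroblasts border on basement membranes, and loss of the alpha 2 chain is known to cause a muscular dystrophy with abnormal white matter. The genes described here are these laminin chains and receptors, 10 of the 33696 genes counted. They are the alpha chain genes Lama1, Lama2, Lama4 and Lama5, the beta chain genes Lamb1 and Lamb2, the gamma chain gene Lamc1, and the receptor genes Dag1, Itga6 and Itgb1. They were taken by symbol as a family, with earlier results of these data known, and all 10 were found in the count tables.

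The study used single-nucleus RNA-seq of mouse ONs at P120 to ask what changes when the mechanosensitive ion channel Piezo2 is deleted from cells of the oligodendrocyte (OL) lineage. There were 8 libraries. The 4 control libraries, replicates 1 to 4, came from Piezo2f/f mice, and the other 4, replicates 10 to 13, were labelled Olig2-cre;Piezo2f/f cKO. Both groups are on a C57BL/6J background and carry floxed Piezo2 alleles, so the control mice lack only the Cre. The Cre is expressed from the Olig2 locus, which is active in OL precursors (OPCs) and OLs but also in other neural progenitors, and mice with it have 1 intact copy of Olig2. Each library pools 6 ONs of 3 female mice, so that a replicate is a pool and p-values measure the spread between pools.

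In the build GRCm39, Lama1 is at chr17:68004223-68129642 on the plus strand, Lama2 at chr10:26856032-27495754 on the minus strand, Lama4 at chr10:38841141-38998403 on the plus strand and Lama5 at chr2:179818166-179867712 on the minus strand. Lamb1 is at chr12:31315030-31379658 on the plus strand, Lamb2 at chr9:108356935-108367729 on the plus strand and Lamc1 at chr1:153094597-153208774 on the minus strand. Dag1 is at chr9:108081833-108152333 on the minus strand, Itga6 at chr2:71575960-71689757 on the plus strand and Itgb1 at chr8:129411876-129460618 on the plus strand. The spans differ widely, from 10.8 kb for Lamb2 to 640 kb for Lama2. Nuclear RNA is rich in unspliced transcripts, which give more counts in long genes, so shares of different genes are given below after division by this span as well as in UMIs. Itga6 shares its strand with the overlapping RNA genes Gm13662 and Gm13663, and its counts are uncertain to that extent.

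The libraries held 39628926 to 56541132 counted transcripts, known as unique molecular identifiers (UMIs), and 3483 to 6211 nuclei passed the filters, 37265 in all. Pairs of libraries shared 2 to 11 barcodes of nuclei. Nuclei were clustered without the 10 genes and the related gene lists used below, and clusters were named from marker genes. UMIs were summed per library and cell type, and levels are given in CPM (the usual counts-per-million scale of that sum). Piezo2 itself was at 505, 391, 401 and 487 CPM in the OLs of control replicates 1 to 4, while OLs of replicates 10 to 13, labelled cKO, had 534, 534, 570.4 and 516 CPM. Piezo2 was thus not lower in the second group but higher, and the groups did not overlap. The log2 difference was 0.26 (SE 0.11, edgeR adjusted p = 0.541) and did not pass the test described below. The libraries of the second group are therefore named by their label throughout, and every direction between genotypes follows the labels. The counts cover the whole gene and not only the floxed exons, so they check the deletion only weakly. Control replicate 3 stood apart, because 62.2% of its OLs fell in a pair of OL clusters that held 6.04% to 11.4% of the OLs of the other control libraries and 0.446% to 3.05% of those in libraries labelled cKO. Summed pituitary hormone genes reached 1058 CPM in the OLs of that library, against 12.1 to 38.0 CPM in the libraries labelled cKO.

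The alpha chain genes differed in the cell types of the control ON where they were high. Fibroblasts were called higher for all 4, though for Lama5 at a low level. Lama1, whose product is typical of pial and embryonic basement membranes, was at 254 ± 101 CPM in fibroblasts (SD, n = 4) and at 118 ± 83.6 CPM in endothelial cells, and these ranges overlapped. OPCs followed with 30.2 ± 14.1 CPM, below every endothelial value. All other cell types averaged 7.83 CPM or less, and the level in astrocytes was 1.93 ± 0.481 CPM. Against the mean of the other cell types, Lama1 was higher in fibroblasts by 5.25 (SE 0.23), in endothelial cells by 3.80 (SE 0.47) and in OPCs by 2.05 (SE 0.56) on the log2 scale. The high mean in fibroblasts owed much to control replicate 1 at 405 CPM, while replicates 2 to 4 had 216, 193 and 202 CPM. The same replicate was high in endothelial cells, at 242 CPM against 67.2 to 94.1 CPM in the other control libraries. The fibroblast marker Dcn had a UMI in 36.2% of control endothelial nuclei, against 62.1% of fibroblasts and 19.2% of OLs. The part of fibroblast RNA in the endothelial level of Lama1 was not tested.

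Lama2 was, also per length, the alpha chain gene with the highest level in OLs. It averaged 609.9 CPM in mural cells, the pericytes and smooth muscle of vessels, but only 2 control libraries had enough of these nuclei, with 855 and 365 CPM. Fibroblasts had 440.1, 290.1, 441 and 336 CPM in replicates 1 to 4, and astrocytes 318, 312, 346 and 322 CPM, so these cell types overlapped. OLs had 189, 197, 219 and 181 CPM, all below every astrocyte library, and endothelial cells overlapped with them at 173 ± 46.5 CPM (SD, n = 4). The lower end was formed by T cells at 102, committed OPCs at 100.2, border-associated macrophages (BAMs) at 96.2, OPCs at 65.9, neurons at 52.1 and microglia at 21.1 CPM on average, each overlapping with the next. Lama2 was higher than the mean of the other cell types in fibroblasts by 1.90 (SE 0.17), in astrocytes by 1.76 (SE 0.17) and in OLs by 1.19 (SE 0.17), and lower in microglia by a log2 difference of -2.71 (SE 0.42), in neurons by -1.15 (SE 0.30) and in OPCs by -0.70 (SE 0.26). The call in OPCs was lost when control replicate 1 or 2 was left out, with log2 differences of -0.47 and -0.53, and without the library as a block (-0.70, edgeR adjusted p = 0.0667).

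Lama4, a chain of vessel walls, followed another order. It averaged 321 CPM in mural cells (n = 2), 240.5 ± 21.7 CPM in fibroblasts, 219 ± 82.3 CPM in endothelial cells and 116 ± 25.6 CPM in OPCs. Then came committed OPCs at 46.0 CPM, T cells at 30.4 CPM, BAMs at 9.77 CPM and OLs at 9.26 ± 4.05 CPM. OPCs had 137, 94.4, 139.6 and 94.1 CPM in replicates 1 to 4, and no OL library exceeded 13.1 CPM. Along the OL lineage Lama4 and Lama2 therefore ran in opposite order, since Lama2 was at 65.9 CPM in OPCs and 197 CPM in OLs. Lama4 was higher than in the other cell types in fibroblasts by 3.48 (SE 0.15), in endothelial cells by 3.19 (SE 0.23), in OPCs by 2.51 (SE 0.21) and in committed OPCs by 1.19 (SE 0.40), and lower in OLs (log2 difference -1.44, SE 0.27), astrocytes, microglia, neurons and BAMs (-1.48, SE 0.49). The call in committed OPCs was lost without control replicate 3 (1.05) or 4 (1.03), and that in BAMs without replicate 1, 3 or 4 (-1.21, -2.25 and -1.25).

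Lama5, a chain of mature vessel and epithelial basement membranes, was found mainly in astrocytes and endothelial cells. Astrocytes had 53.3, 53.2, 61.8 and 68.3 CPM and endothelial cells 51.4, 52.9, 36.0 and 34.4 CPM, just below every astrocyte library. Fibroblasts averaged 11.0 ± 5.99 CPM and OLs 3.69 ± 1.13 CPM. The fibroblast mean was 0.926 times the level in RNA outside nuclei, described below, and among fibroblast subclusters number 38 stood out with 54.4 CPM. The log2 differences from the other cell types were 4.25 (SE 0.24) in astrocytes, 3.54 (SE 0.46) in endothelial cells and 1.49 (SE 0.45) in fibroblasts.

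Of the beta chain genes, Lamb1 was low in all cell types, with its highest means at 33.0 ± 24.5 CPM in endothelial cells and 24.2 ± 2.77 CPM in fibroblasts. It did not pass the filter on low counts for the test between cell types. Lamb2 was at 145 ± 23.9 CPM in fibroblasts, 107 ± 59.8 CPM in endothelial cells, 92.5 CPM in mural cells (n = 2) and 73.1 ± 22.0 CPM in astrocytes, each overlapping with the next. It averaged 18.4 CPM in OLs, 13.4 CPM in neurons and 13.2 CPM in OPCs. Lamb2 was higher than in the other cell types in fibroblasts by 2.26 (SE 0.14), in endothelial cells by 1.58 (SE 0.26) and in astrocytes by 1.22 (SE 0.15), and lower in OLs (-0.75, SE 0.18), OPCs and neurons.

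Lamc1 encodes the gamma chain shared by most laminins. Fibroblasts had 536, 474, 360.3 and 357 CPM in replicates 1 to 4, and mural cells averaged 327 CPM (n = 2). Endothelial cells had 199 ± 45.2 CPM, above every OPC library, and OPCs, OLs, astrocytes, committed OPCs and BAMs lay between 117 and 79.4 CPM on average with overlap at each step. Lamc1 was higher than in the other cell types in fibroblasts by 2.24 (SE 0.11) and in endothelial cells by 0.95 (SE 0.18), and lower in microglia (log2 difference -1.46, SE 0.25) and in neurons (-1.0, SE 0.20).

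Of the receptor genes, Dag1 encodes both subunits of dystroglycan, which binds laminin outside the cell and dystrophin or utrophin inside. It was at 139.5 ± 17.1 CPM in fibroblasts and 112 ± 16.0 CPM in astrocytes, and lowest in OLs at 16.0, 18.5, 22.6 and 21.1 CPM. The log2 differences from the other cell types were 1.41 (SE 0.12) in fibroblasts, 1.16 (SE 0.12) in astrocytes, -1.16 (SE 0.29) in microglia and -1.41 (SE 0.16) in OLs. BAMs were also called lower (-0.74, SE 0.26), a call that was lost without control replicate 1 (-0.66) or 3 (-0.60) and without the library as a block (-0.69, edgeR adjusted p = 0.0697). OPCs had 61.4 ± 22.0 CPM and committed OPCs 55.7 ± 26.3 CPM, and neither passed the test.

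Itga6 spanned the widest range of the receptors. Microglia had 387, 339, 381 and 367 CPM, above every astrocyte library, and astrocytes (215 ± 38.3 CPM), endothelial cells (204 ± 73.3 CPM) and BAMs (179 ± 81.0 CPM) overlapped. OPCs had 19.8 ± 15.1 CPM, fibroblasts 12.3 ± 3.62 CPM and OLs 5.56, 5.26, 4.58 and 5.70 CPM. Itga6 was higher than in the other cell types in microglia by 2.88 (SE 0.19), in astrocytes by 2.16 (SE 0.14), in endothelial cells by 1.84 (SE 0.23) and in BAMs by 1.70 (SE 0.22), and lower in OLs (-3.52, SE 0.27), fibroblasts (-2.52, SE 0.26) and OPCs (-1.56, SE 0.31). It was also called lower in neurons (-0.83, SE 0.30), a call that was lost without control replicate 2, 3 or 4 (-0.72, -1.05 and -0.61) and after subtraction of the outside RNA described below (-0.29). The lower calls in fibroblasts and OPCs were lost after that subtraction as well.

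Itgb1 encodes the beta chain common to many integrins. It averaged 358 CPM in T cells, where replicate 3 with 642 CPM was high, and 235 ± 28.5 CPM in endothelial cells and 212 ± 11.0 CPM in fibroblasts. OLs had the lowest mean, with 50.6, 52.3, 70.4 and 91.7 CPM, which overlapped with neurons at 77.8 ± 23.8 CPM. The log2 differences from the other cell types were 1.12 (SE 0.23) in T cells, 0.82 (SE 0.15) in endothelial cells, 0.68 (SE 0.11) in fibroblasts, -0.72 (SE 0.16) in neurons and -0.88 (SE 0.11) in OLs. Without control replicate 3 the difference in T cells was 0.80 and was not called.

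**Figure D1:**
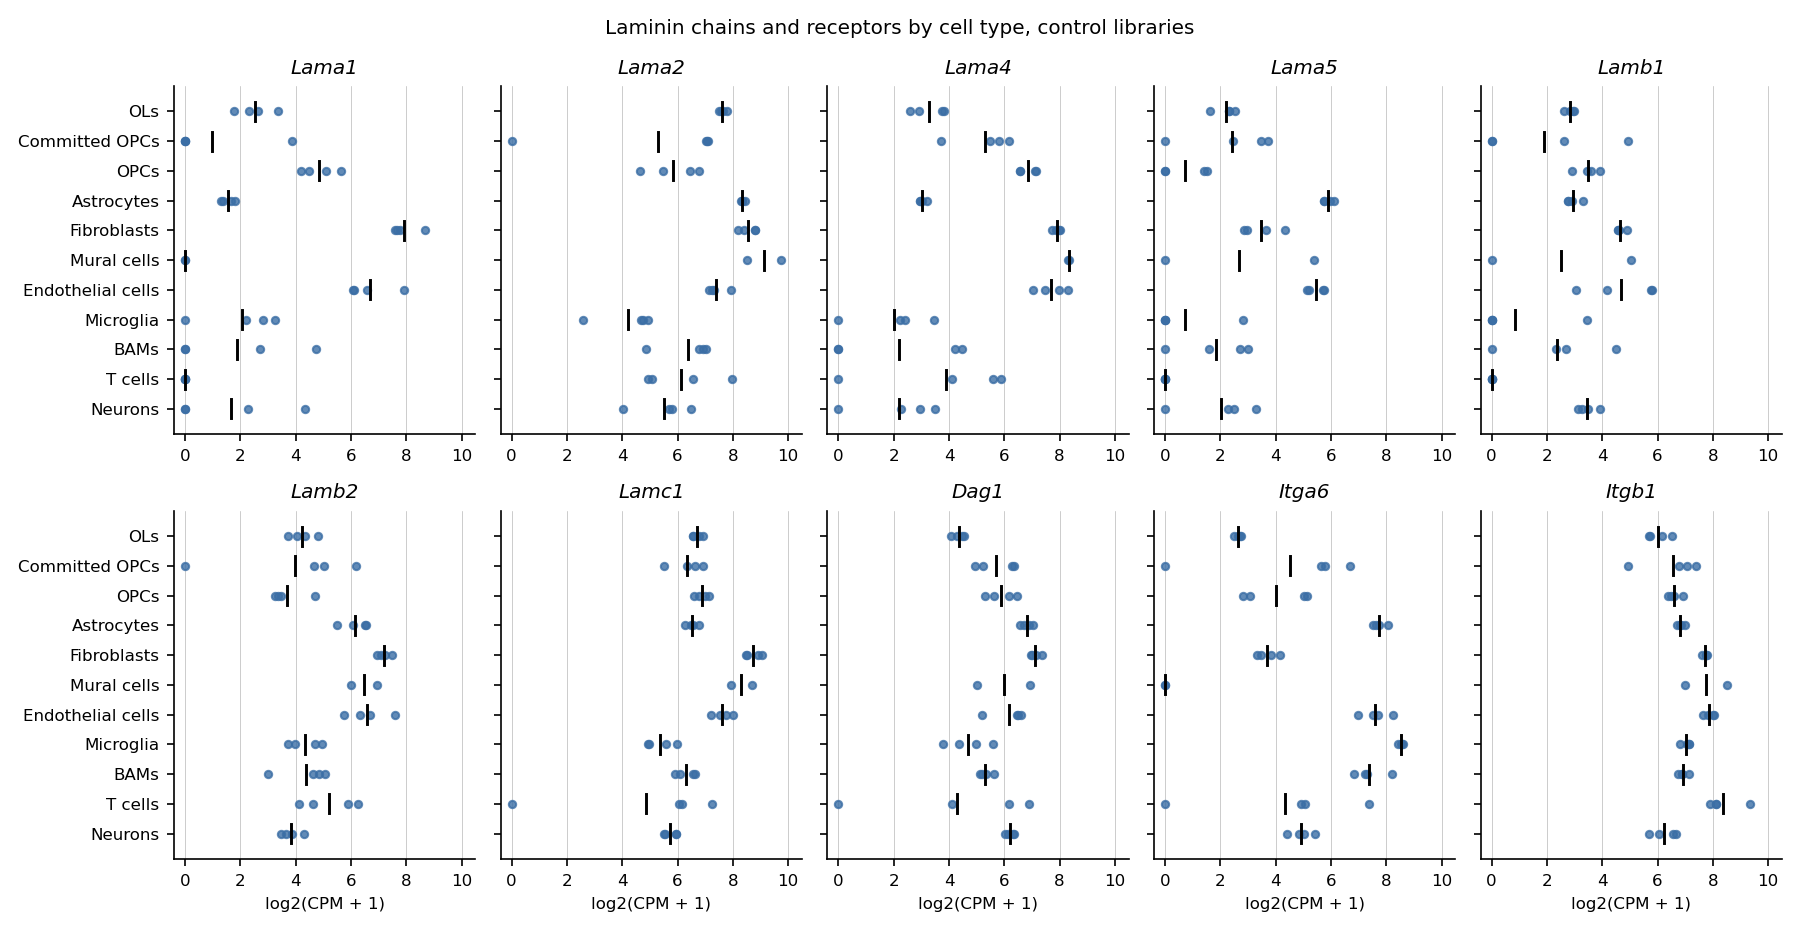
Levels of the 10 genes in 11 cell types of the control libraries. Each point is 1 library, as log2(CPM + 1) on the horizontal axis, and the black bar is the mean of these log2 values. The points of Lama1 lie far to the right only in fibroblasts and endothelial cells, those of Lama2 also in astrocytes and OLs, and those of Itga6 in microglia.

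The tests behind these statements compared each of 10 cell types with the mean of the others in the 4 control libraries, with the library as a block, by edgeR's quasi-likelihood test on summed counts. A call needed a Benjamini-Hochberg adjusted p below 0.05, taken over all 10072 genes tested, together with a log2 difference beyond 0.5 in either direction. Of the 10 genes, 9 passed the filter, and of the 90 pairs of gene and cell type 27 were called higher and 22 lower. In fibroblasts 8 of the 9 genes were higher and 1 lower, where 20.7% of all genes tested were higher and 17.3% lower. In endothelial cells 7 were higher and 0 lower, against 15.9% and 5.36% of all genes. In astrocytes 5 were higher and 1 lower, against 23.7% and 16%. In these 3 cell types the share of members called higher was above that of all genes.

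In the other cell types members were called lower more often than higher, or seldom called. In OLs 1 gene, Lama2, was higher and 5 were lower (Lama4, Lamb2, Dag1, Itga6 and Itgb1), against 22.4% and 18.8% of all genes. In OPCs 2 were higher and 3 lower, against 18.3% and 5.37%, and in committed OPCs 1 was higher and 0 lower, against 15.7% and 4.71%. In microglia 1 was higher and 4 were lower, against 20.1% and 22.2%. In BAMs 1 was higher and 2 lower, against 15.8% and 7.74%, and in T cells 1 was higher and 0 lower, against 4.81% and 3.5%. In neurons 0 were higher and 6 lower, against 23.1% and 18.3%.

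Barcodes outside called nuclei carried RNA of the same genes, and part of it is counted in every nucleus. In the control libraries this outside RNA held Itgb1 at 163 ± 9.14 CPM, Lamb2 at 127 ± 8.72 CPM, Lamc1 at 95.6 ± 5.01 CPM, Dag1 at 84.2 ± 6.10 CPM and Lama2 at 74.7 ± 11.0 CPM (SD, n = 4). Lama4 was at 47.3 ± 5.28 CPM there, Itga6 at 41.5 ± 5.05 CPM, and Lama1, Lamb1 and Lama5 at 16.9 ± 2.20, 13.2 ± 1.43 and 11.9 ± 1.23 CPM. Lama2 was 2.63 times that level in OLs, 4.34 times in astrocytes and 5.04 times in fibroblasts, but 0.282 times in microglia. Itga6 was 8.88 times the outside level in microglia and 0.127 times in OLs, and Lama1 was 15 times the outside level in fibroblasts. Lamc1 was 4.52 times the outside level in fibroblasts and 1.08 times in OLs, but 0.551 times in neurons and 0.443 times in microglia. Lamb2 was above its outside level in fibroblasts at 1.14 times and below it in every other cell type, with 0.837 times in endothelial cells, 0.727 times in mural cells and 0.574 times in astrocytes. Itgb1 was above it in T cells (2.19 times), mural cells, endothelial cells (1.44 times) and fibroblasts (1.29 times), and Dag1 in fibroblasts (1.66 times) and astrocytes (1.33 times). Lama1, Lama5 and Itgb1 in OLs were at 0.308, 0.309 and 0.405 times their outside levels. Outside RNA was estimated at 12.8% to 19.7% of the UMIs in control OLs and at 37.8% to 80.5% in control endothelial cells. When an outside profile was subtracted from each sum at such shares, 29 pairs were called higher but only 11 lower. The 12 calls that were lost were all lower ones: Dag1 in BAMs, all 5 of Lama4, all 3 of Lamb2 and those of Itga6 in OPCs, fibroblasts and neurons. Lama4 and Lamb2 in OLs lost their calls with log2 differences of -1.71 and -2.67.

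The mix of alpha chain RNA differed between cell types. In OLs Lama2 gave 91.7% ± 2.70 of the UMIs of the 4 alpha chain genes (SD, n = 4), and 64.4% ± 7.05 when each gene was divided by its length. In OPCs Lama4 led with 55.3% ± 10.4 of the UMIs and 67.6% ± 5.41 per length. In astrocytes the leading gene depended on this choice: Lama2 gave 82.6% ± 1.48 of the UMIs, but per length Lama5 gave 67.6% ± 2.23 and Lama2 28.9% ± 2.11. In fibroblasts Lama2 gave 42.6% ± 4.05 of the UMIs, Lama1 28.3% ± 6.94 and Lama4 27.7% ± 4.24, while per length Lama1 gave 45.4% ± 9.64, Lama4 35.8% ± 6.06 and Lama2 13.5% ± 2.12. Of the beta chain genes, Lamb2 gave 97.2% ± 0.588 per length in fibroblasts, 98.3% ± 0.717 in astrocytes and 94.3% ± 1.98 in OLs, and of the UMIs 85.5% ± 2.72, 90.9% ± 3.66 and 73.7% ± 6.97.

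Levels of the chains differed widely among fibroblasts. Clustering gave 6 fibroblast subclusters, numbered by size among all clusters, and neither the 10 genes nor the related lists entered it. Subcluster 26, with Cemip, Eln and Col6a3 among its leading genes, had Lama1 at 1286 ± 237 CPM, Lamc1 at 996 ± 155 CPM and Lamb1 at 78.9 ± 26.6 CPM, the highest of the 6 subclusters for each (SD, n = 4 control libraries). Subcluster 12, led by Slc47a1, Slc4a10, Chrm3 and Adamtsl3, was the opposite, with Lama1 at 5.66 ± 6.55 CPM, Lamc1 at 146 ± 28.0 CPM and Lama4 at 140.2 ± 15.5 CPM.

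The remaining fibroblast subclusters differed in which genes were highest. Subcluster 27, with Adamts12 and Slc7a11, had the highest Lama2 at 680.2 ± 153 CPM together with Lama1 at 529 ± 313 CPM. Subcluster 25, with Kcnt1 and Slc6a20a, had Lama2 at 561 ± 73.0 CPM and Lama4 at 397 ± 38.2 CPM. Subcluster 38, with Prg4, Dpp4 and Cdh1, had Lama5 at 54.4 ± 12.7 CPM, while the others had at most 10.1 CPM, and its Lama1 was at 4.98 ± 9.96 CPM. Subcluster 28, with Igfbp3, Pla1a, Tfpi and Ccn2, had the highest Lamb2 at 249.7 ± 47.3 CPM and the highest Itgb1 at 319 ± 25.8 CPM. Dag1 lay between 109 ± 31.2 CPM and 206 ± 45.9 CPM, and Itga6 did not exceed 19.9 ± 14.1 CPM in any subcluster. These values describe subclusters and were not tested.

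**Figure D2:**
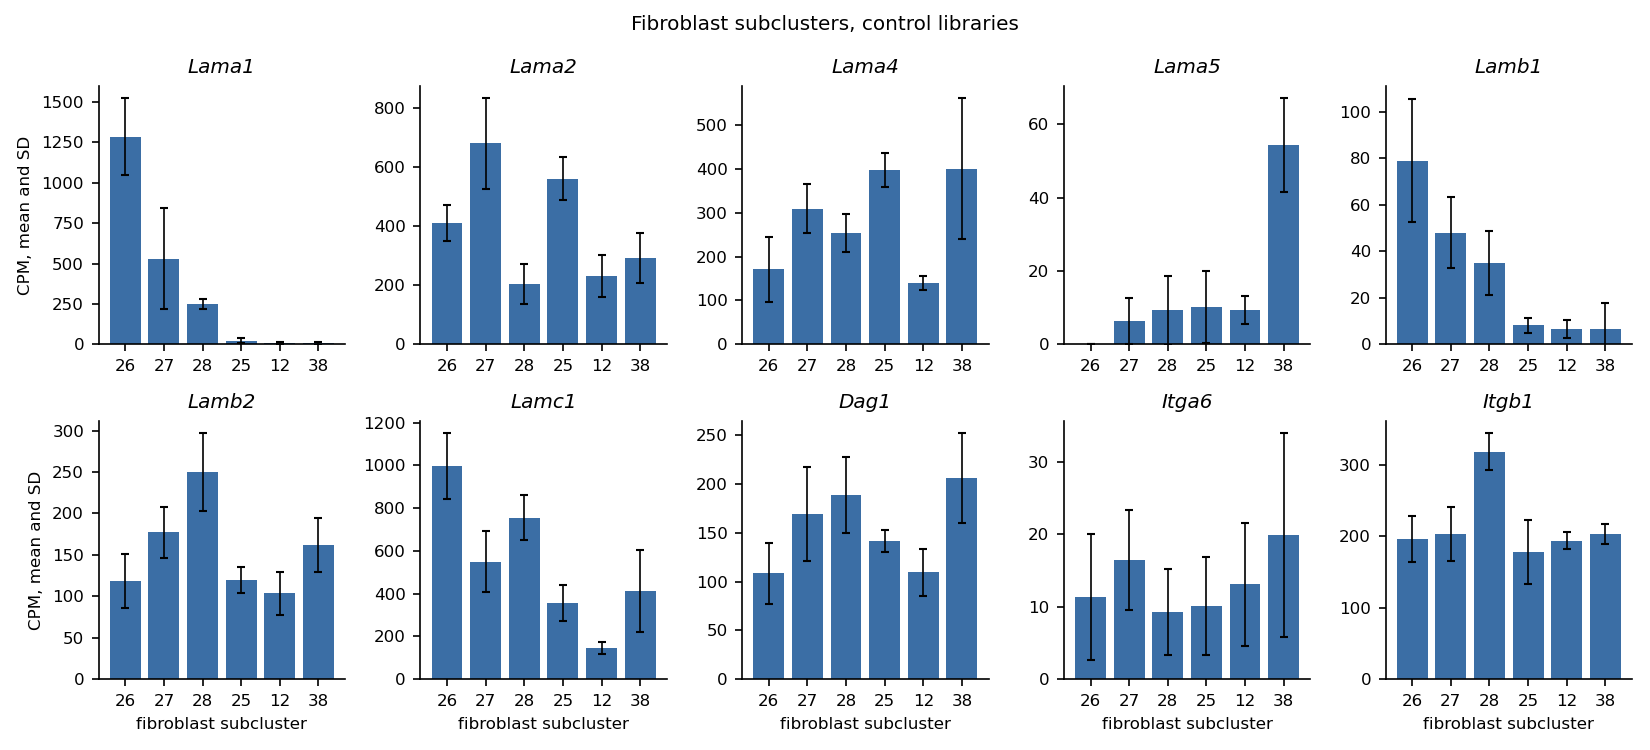
Levels of the 10 genes in 6 fibroblast subclusters of the control libraries. Bars are means over libraries in CPM and lines are the SD, with a separate vertical axis from 0 for each gene. Lama1 reaches 1286 CPM in subcluster 26 and 5.66 CPM in subcluster 12, and Lama5 stands out in subcluster 38.

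Subclusters of astrocytes and OLs differed as well. Over 8 astrocyte subclusters Lama2 ran from 189.8 ± 12.6 CPM (subcluster 14, with Hpse2 and Gabrg3) to 495 ± 35.1 CPM (subcluster 30, with Myoc), a range of 2.61 times. Lama5 ran from 15.7 ± 19.1 to 73.6 ± 19.3 CPM, with the lowest value in a subcluster led by Npy, Plk4, Gpnmb and Id4. Itga6 ranged from 146 ± 57.9 to 264 ± 60.5 CPM over the same subclusters. Over 18 OL subclusters Lama2 ran from 79.9 ± 37.7 CPM in subcluster 6, with Kit among its leading genes, to 277 ± 40.9 CPM in subcluster 8, with Scd3. The next highest value was 268 ± 60.9 CPM in subcluster 18, which is mostly control replicate 3. A small OL subcluster led by 7630403G23Rik, Gm44115 and Sphk1, with 119 control nuclei, had the highest levels among OL subclusters of Lama1 (83.4 ± 43.9 CPM), Lama4 (75.8 ± 20.8 CPM), Lamb2 (63.6 ± 22.7 CPM), Lamc1 (199 ± 95.3 CPM), Dag1 (54.4 ± 10.3 CPM) and Itgb1 (106 ± 41.4 CPM). In this subcluster 5 of 8 OL markers stood out, the fewest of any OL subcluster, and its nuclei were deeper than those of most OL subclusters. Whether it holds mixed nuclei was not tested.

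Other genes of the pathway were followed through 6 lists with 69 genes, read against the shares of all genes given above. Among the 14 basement membrane partners, 11 were tested. Of these, 10 were higher in fibroblasts, led by Hspg2 (perlecan, log2 difference 3.44, SE 0.17) and Nid1 (nidogen 1, 3.42, SE 0.15), and 8 were higher in endothelial cells, led by the collagen IV gene Col4a1 (4.25, SE 0.29) and the netrin gene Ntn4 (3.84, SE 0.54). In astrocytes 8 were higher and 1 lower, led by Col4a6 (3.85, SE 0.17) and Col4a5 (3.83, SE 0.15). In OLs 0 were higher by edgeR and 4 were lower, with 7 at an unadjusted p under 0.05, as were 6064 of all 10072 genes. The medians of the list were 2.84 in fibroblasts, 1.41 in endothelial cells, 1.18 in astrocytes and -0.97 in OLs, where the medians over all genes were 0.01, 0.01, 0.01 and 0.09. Of the laminin chain genes outside the 10, Lama3 was tested, and it was higher in astrocytes (4.42, SE 0.28), endothelial cells (3.61, SE 0.55) and committed OPCs (2.75, SE 0.81).

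Of 14 other laminin-binding receptors 11 were tested, and in OLs 2 were higher and 4 lower. The higher ones were Mcam, a cell adhesion molecule that binds laminins (1.67, SE 0.17), and Itgb4, the other beta partner of integrin alpha 6 (0.89, SE 0.12). In astrocytes Itgb4 was also higher (2.53, SE 0.11), as was the syndecan gene Sdc4 (2.28, SE 0.11). OPCs had higher Itga9 (3.76, SE 0.13) and Sdc3 (2.49, SE 0.17), fibroblasts Sdc2 (2.74, SE 0.17) and Itga3 (2.66, SE 0.30), and endothelial cells Itga1 (4.38, SE 0.22) and Bcam (3.72, SE 0.39), which encodes a receptor for laminin alpha 5. Itga1 was also higher in T cells (3.86, SE 0.41), and microglia had higher Itga9 (1.54, SE 0.24) and Itgav (0.88, SE 0.16).

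In the dystroglycan complex, 11 of 13 genes were tested. OLs had 4 higher and 3 lower, led by the dystrobrevin gene Dtna (1.33, SE 0.12) and the sarcoglycan gene Sgcb (0.96, SE 0.13). Astrocytes had 6 higher and 0 lower, with Utrn (utrophin) at 2.43 (SE 0.15). OPCs had 4 higher and 1 lower, led by Sgcd (5.14, SE 0.26) and Dmd (dystrophin, 2.72, SE 0.14). Of 12 genes that glycosylate dystroglycan so that it can bind laminin, 8 were tested, and OLs had 3 higher and 1 lower. Of 12 integrin effectors, all tested, OLs had 4 higher and 4 lower, led by the kinase gene Ptk2 (1.44, SE 0.12) and the talin gene Tln2 (1.35, SE 0.10). Fibroblasts had 2 higher, Parva (3.64, SE 0.16) and Vcl (1.70, SE 0.15), and 1 lower, and committed OPCs had 4 higher, led by Fyn (3.75, SE 0.13), a kinase of OL differentiation.

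The genes with the most similar patterns were found by Pearson's r of log2(CPM + 1) over 42 sums of cell type and control library, among 14138 genes with a mean of at least 5 CPM. The points share libraries and differ in depth, so r is a description. For Lama2 they were Itih5 (r = 0.81), Plekhh2 (0.81) and Lzts2 (0.80), and Itih5 was also closest to Lamb2 (0.84), followed by Laptm4a (0.82) and Id1 (0.82). Lama1 was closest to the collagen VI gene Col6a3 (0.84), Arhgap28 (0.83) and Gm20631 (0.83), and Lama4 to the caldesmon gene Cald1 (0.79), Trib2 (0.79) and Tpm1 (0.77). Lama5 was closest to Osmr (0.79), Tjp1 (0.77) and Plat (0.75), and Lamc1 to Syne2 (0.86), Tef (0.86) and Synm (0.85). Inmt (0.73) and Zfp335 (0.72) were among the 3 closest to Lamb1. For the receptors they were Atl2 (0.83), Sulf1 (0.78) and Ldb2 (0.78) for Dag1 and Mfhas1 (0.81), Tor3a (0.81) and Ctbp2 (0.80) for Itga6, while Elk4 (0.80) and Trim12a (0.78) were among the 3 for Itgb1. Among the 10 genes, r was 0.72 between Lama2 and Lamb2 and -0.12 between Lama2 and Itga6.

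Between genotypes, Lama2 differed in OLs. The control libraries had 189, 197, 219 and 181 CPM in replicates 1 to 4, and the libraries labelled cKO had 102, 124, 123 and 124 CPM in replicates 10 to 13. The groups did not overlap, and replicate 10 was the lowest of all. The level was 0.596 times that of the controls, a log2 difference of -0.75 (SE 0.10, 95% interval -0.96 to -0.53), with an edgeR adjusted p = 0.0115 over the 14598 genes tested in OLs. It was the 1 member of 10 called in OLs, where 0.0822% of all genes were called. The study itself names Lama2 as lower in these OLs, so its direction here is not independent evidence.

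The call was lost when 1 of the 8 libraries was left out. Without replicate 10, 11, 12 or 13 the log2 difference was -0.67, -0.76, -0.78 and -0.77, and without replicate 11 the edgeR adjusted p rose to 0.0547, so that Lama2 was no longer called. Without control replicate 3 the difference was -0.69 with an edgeR adjusted p = 0.0468, and with its pair of OL clusters left out in all libraries it was -0.70 with an edgeR adjusted p = 0.0117. DESeq2 gave -0.75 with an adjusted p = 4.70e-08, and clustering with another seed gave -0.74 with an edgeR adjusted p = 0.0118.

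RNA of other cells also differed in these OL sums. The 10 fibroblast markers summed to 256 to 637 CPM in control OLs, with the highest value in replicate 3, and to 241 to 368 CPM in OLs of the libraries labelled cKO, and 9 of the 10 were lower in the latter. In control OLs this sum was 2.32% of the level in fibroblasts, and none of the 10 markers was at 0 in all libraries. All 4 hemoglobin genes were lower as well, with sums of 1447 to 2926 CPM against 585 to 1442 CPM, and 5 of 6 pituitary genes were lower, with sums of 54.5 to 1058 CPM against 12.1 to 38.0 CPM. Markers of BAMs were lower in 6 of 6 (5.42 to 9.87 against 3.68 to 6.14 CPM), those of mural cells in 5 of 8 (13.9 to 27.9 against 11.5 to 21.7 CPM) and those of endothelial cells in 5 of 7 (17.4 to 29.2 against 15.5 to 23.9 CPM). In the other direction, 6 of 6 microglia markers (193 to 210.1 against 198 to 237 CPM), 4 of 6 astrocyte markers (427 to 577 against 425 to 637 CPM) and 5 of 6 retina genes (1.70 to 3.06 against 3.43 to 8.88 CPM) were higher. The part of these differences in the result for Lama2 was not tested. Outside RNA held Lama2 at 67.4, 68.8, 91.0 and 71.8 CPM in the control libraries, while replicates 10 to 13 had 47.4, 48.8, 57.7 and 70.6 CPM there. After subtraction of an outside profile the log2 difference of Lama2 in OLs was -0.76 with an edgeR adjusted p = 0.0175.

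The same difference was seen in the share of OLs with at least 1 UMI of Lama2. With every nucleus thinned to 1000 UMIs, this share was 15.2% ± 1.24 in control OLs and 9.61% ± 1.01 in those labelled cKO (SD, n = 4 each). The groups did not overlap, and the exact two-sided permutation test gave p = 0.0286 for n = 4 against 4, the smallest value it can give, and 0.143 after adjustment over the 10 genes. An adjusted value under 0.05 would need most of the 10 genes at that smallest value, so the adjusted value cannot decide here. Lamc1 was the other gene without overlap, at 9.37% ± 0.929 against 7.53% ± 0.788 with the same exact permutation p and adjusted value. Its groups all but touched, with a lowest control value of 8.546% and a highest value labelled cKO of 8.544%. Thinning draws UMIs at random, and whether another draw keeps this gap was not tested. No share over all genes is given for the number of genes without overlap. Without thinning the Lama2 shares were 31.3% ± 2.93 and 20.8% ± 2.49, again without overlap, while those of Lamc1 overlapped at 23.5% ± 2.43 and 19.6% ± 3.34. In microglia, where Lama2 was below the outside RNA, the thinned shares were 1.72% ± 1.19 and 1.92% ± 1.3, and the shares in OLs were above these. Median UMIs per nucleus were 2228 to 3099.5 in OLs and 1644 to 2092 in microglia.

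**Figure D3:**
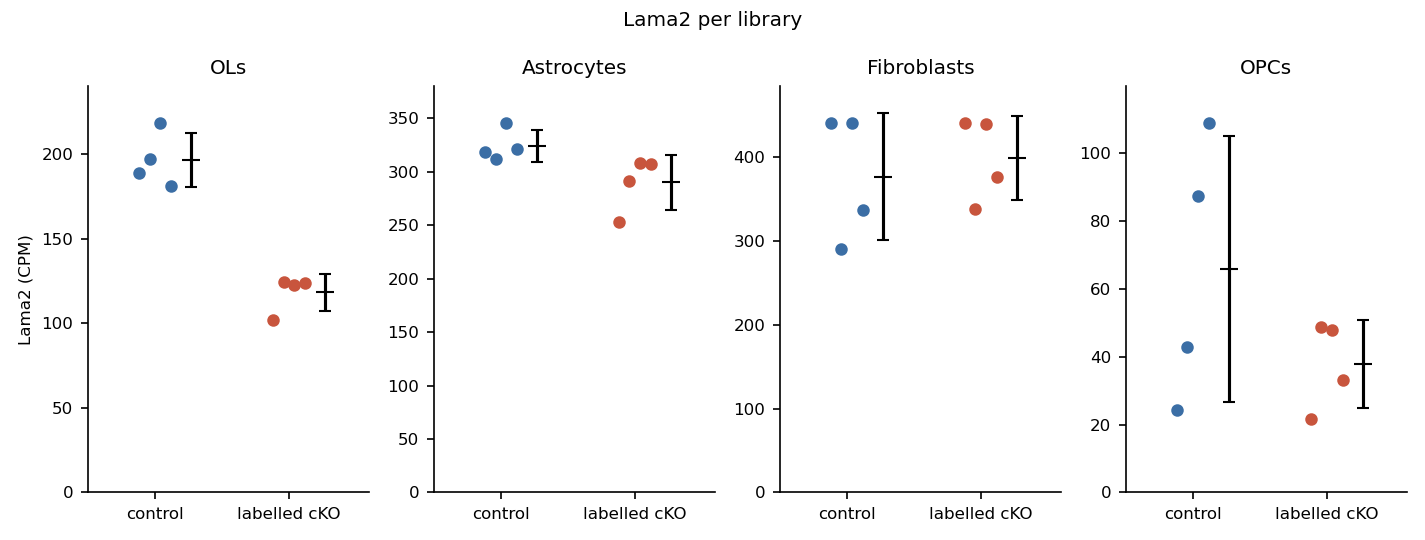
Lama2 in CPM (vertical axis, from 0) per library in OLs, astrocytes, fibroblasts and OPCs, for control libraries (blue) and libraries labelled cKO (red), with mean and SD in black. In OLs the control points lie between 181 and 219 CPM and the others between 102 and 124 CPM, and in fibroblasts the groups overlap.

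The lower level ran through the OLs. All 18 OL subclusters had at least 3 libraries of each genotype, and in 18 of 18 the mean of Lama2 was lower in the libraries labelled cKO. In 9 of the 18 the groups did not overlap. The subclusters are parts of the same 8 libraries, so they are not independent repeats, and no share over all genes is given for these counts. Subcluster 2, with Art3, had 224 ± 29.4 against 143 ± 17.4 CPM, subcluster 3, with Slc7a15, 123 ± 26.1 against 63.6 ± 10.2 CPM and subcluster 8, with Scd3, 277 ± 40.9 against 163 ± 20.5 CPM (SD, n = 4 each). A small subcluster led by the interferon-response genes Mx2, Ddx60 and Usp18 had 140.2 ± 57.7 (n = 3) against 91.0 ± 54.6 CPM, which overlap. With 13 of the 18 subclusters given equal weight, so that the sizes of these 13 do not enter, the log2 difference was -0.65. The exact two-sided permutation test gave p = 0.0286 (n = 4 each), the smallest value it can give. This comparison was added after seeing the data. It reuses the OL counts of the same libraries, whose groups already did not overlap, so its p is not separate evidence.

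**Figure D4:**
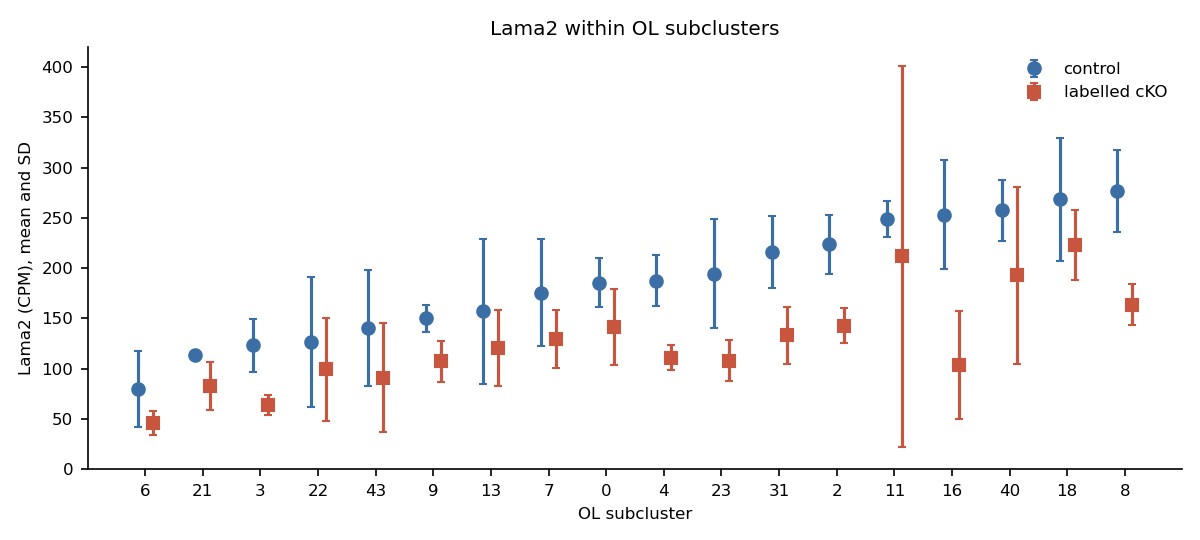
Lama2 in the 18 OL subclusters with at least 3 libraries per genotype, ordered by the control mean. Circles are control libraries and squares libraries labelled cKO, as mean and SD over libraries in CPM. The square lies below the circle in each of the 18 subclusters.

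In the other cell types tested Lama2 was not called. Mural cells and T cells had too few libraries for this test, and in microglia Lama2 did not pass the filter. In mural cells the 2 control libraries had 855 and 365 CPM and 2 libraries labelled cKO had 1805 and 1156 CPM, which is higher without overlap on 36 and 81 UMIs of Lama2 in all. T cells averaged 102 CPM in the controls (n = 4) and 178 CPM in 2 libraries labelled cKO, which overlap. Astrocytes had 318, 312, 346 and 322 CPM in the control libraries and 253, 292, 308 and 308 CPM in the libraries labelled cKO. These groups did not overlap either, but the log2 difference of -0.17 (SE 0.10, 95% interval -0.39 to 0.05) did not pass, with an edgeR adjusted p = 0.731. In fibroblasts the log2 difference was 0.07 (SE 0.16), in endothelial cells -0.39 (SE 0.26), in BAMs -0.49 (SE 0.33), in committed OPCs -0.63 (SE 0.55) and in neurons 0.15 (SE 0.40). OPCs had 24.3, 42.9, 87.5 and 109 CPM against 21.7, 48.8, 48.0 and 33.1 CPM, a log2 difference of -0.79 (SE 0.35, 95% interval -1.52 to -0.06) with an edgeR adjusted p = 0.872. The groups overlap in OPCs, and the interval holds both the difference seen in OLs and values near 0. The control mean in OPCs was 0.882 times the level in outside RNA, which was estimated at 17.7% to 51.7% of the UMIs in control OPCs.

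Whether the effect in OLs differed from that in other cell types was tested on the difference itself, per library, with log2(CPM + 1) of OLs minus that of fibroblasts or astrocytes. For Lama2 the genotype effect in OLs was lower than in fibroblasts by a log2 difference of -0.82 and lower than in astrocytes by -0.57. In both cases the groups did not overlap and the exact two-sided permutation test gave p = 0.0286 (n = 4 each), the smallest possible. Over the 20 such tests the adjusted value was 0.190, so neither passed. With 4 libraries per group, an adjusted value under 0.05 would need most of the 20 tests at the smallest p. The adjusted value therefore cannot decide whether the effects differ. Itga6 had a difference of 0.82 against fibroblasts with the same p. Its control levels were low in both cell types, at 0.127 times the outside RNA in OLs and 0.297 times in fibroblasts.

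The other 9 genes were not called in OLs. Lamc1 had 119, 92.8, 93.6 and 107 CPM in the control libraries and 75.9, 79.6, 98.9 and 85.8 CPM in the libraries labelled cKO, which overlap, and its log2 difference of -0.29 (SE 0.12) had an edgeR adjusted p = 0.537. Its mean was lower in 16 of the 18 OL subclusters, without overlap in 2 of them. Lama1 was low and had a log2 difference of -0.80 (SE 0.37), with 4.03, 2.38, 9.16 and 5.26 CPM in the controls, of which replicate 3 was the highest, and 1.76, 3.40, 3.44 and 3.30 CPM in the libraries labelled cKO. Lama4 (-0.39, SE 0.32), Lama5 (0.50, SE 0.27) and Itga6 (0.29, SE 0.20) were below 15 CPM in every OL sum. Lamb2 (-0.01, SE 0.27), Dag1 (0.03, SE 0.12) and Itgb1 (0.06, SE 0.17) had log2 differences near 0, and Lamb1 was 0.999 times its control level. The widest of their 95% intervals, that of Lamb2, ran from -0.60 to 0.57.

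**Figure D5:**
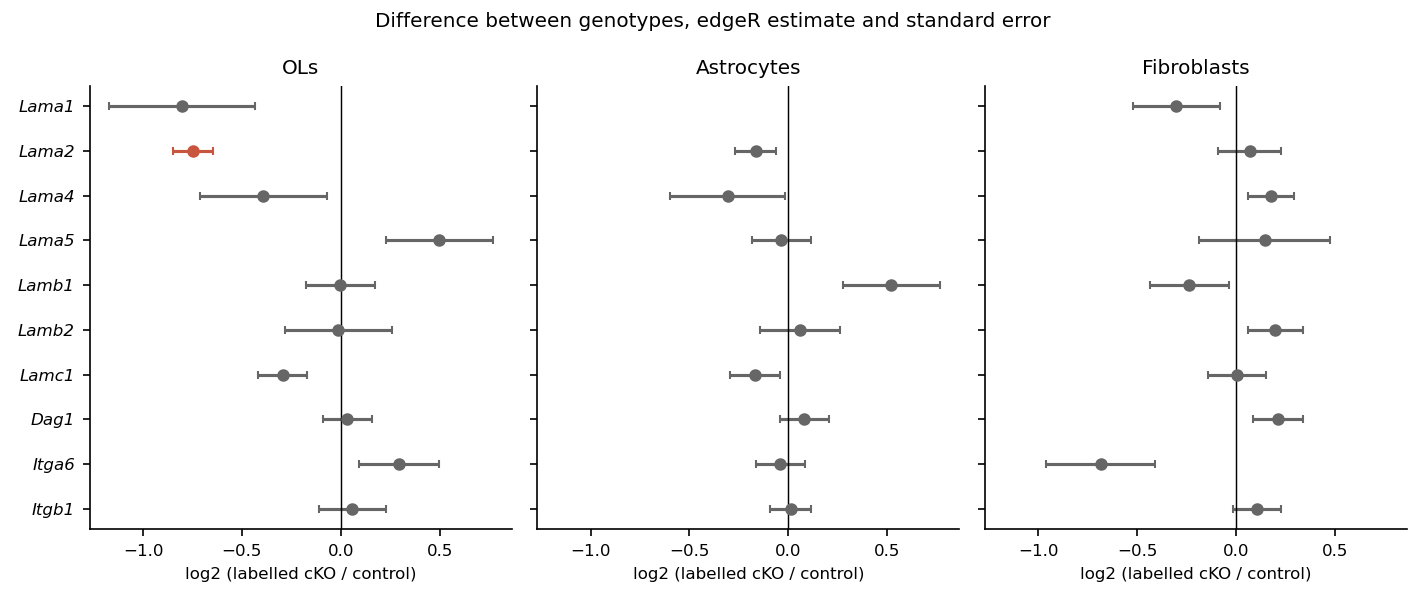
Log2 difference between libraries labelled cKO and control libraries (horizontal axis) for each of the 10 genes in OLs, astrocytes and fibroblasts, as edgeR estimate with SE. The red point, Lama2 in OLs at -0.75, is the only one called. Lama1 in astrocytes did not pass the filter on low counts.

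Over the 9 cell types with enough libraries, 61 of the 90 pairs of gene and cell type passed the filter, and Lama2 in OLs was the only one called. Called members numbered 0 of 7 tested in OPCs, where 0.0675% of all genes were called, and 0 of 4 in microglia, where 0.0752% were called. They numbered 0 of 9 in astrocytes, 0 of 10 in fibroblasts, 0 of 8 in endothelial cells, 0 of 5 in BAMs, 0 of 4 in committed OPCs and 0 of 4 in neurons, and in each of these 0% of all genes were called by edgeR. DESeq2 called 0 members in these 8 cell types as well. In all 9 cell types 4 pairs had an unadjusted edgeR p under 0.05, which were Lama2 and Lamc1 in OLs, Lama2 in OPCs and Itga6 in fibroblasts (12.3 ± 3.62 against 7.82 ± 1.19 CPM, log2 difference -0.68, SE 0.27), and the lowest edgeR adjusted p beside that of Lama2 in OLs was 0.537. Over all genes, an unadjusted edgeR p under 0.05 was found for 1290 of 14598 in OLs, 498 of 8890 in OPCs and 669 of 13022 in fibroblasts. Dag1 in microglia had the highest difference of its 9 cell types, 0.72 (SE 0.41).

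None of the 69 genes of the pathway lists was called between genotypes in any of the 9 cell types by edgeR, in 350 tests of which 24 had an unadjusted p under 0.05, and DESeq2 also called 0 of 557. Such unadjusted p-values were also found over all genes, for example for 1290 of 14598 in OLs and 1042 of 14229 in astrocytes by edgeR. Without a filter on low counts edgeR called 3 of 612, the collagen gene Col4a5 in OPCs and the sarcoglycan gene Sgcd in BAMs and in endothelial cells. Olig2, the gene that carries the Cre, was at 23.8, 31.4, 39.7 and 27.4 CPM in control OLs, and OLs of replicates 10 to 13 had 43.6, 52.4, 49.0 and 43.8 CPM. The groups did not overlap, but the log2 difference of 0.61 (SE 0.14) had an edgeR adjusted p = 0.207. It was called by DESeq2 (adjusted p = 0.0381), without a filter on low counts, and when control replicate 3 was left out (0.77, edgeR adjusted p = 0.0468).

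The study also compared OLs by whether they express Piezo2, and the control OLs were split here by the presence of a Piezo2 UMI. The 4 control libraries had 827 to 1536 Piezo2+ and 493 to 1344 Piezo2- OLs, and the former were deeper, with median UMIs of 2620.0 to 3416 against 1852 to 2542. The library was a block in this test. Of the 10 genes 9 were tested and 0 were called by edgeR at the log2 limit of 0.5, where 3.11% of all 12467 genes were called. An unadjusted p under 0.05 was found for 4 of the 9 and for 3053 of all 12467 genes. DESeq2 called 0 as well, with 3 of the 10 genes tested.

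By the adjusted p alone, without a limit on size, 13.8% of all genes passed, and so did 3 members. Lama2 was at 177, 179.6, 196 and 176 CPM in Piezo2+ OLs and at 209, 226, 253 and 196 CPM in Piezo2- OLs of replicates 1 to 4. It was lower in Piezo2+ OLs in 4 of 4 libraries, by a log2 difference of -0.27 (SE 0.05, edgeR adjusted p = 2.62e-06). Lamb2 was also lower in 4 of 4 libraries (16.5 ± 7.21 against 21.7 ± 5.02 CPM, -0.43, SE 0.15), and Lamc1 was higher in 4 of 4 (108 ± 15.4 against 94.9 ± 8.25 CPM, 0.20, SE 0.07). When Piezo2- OLs were matched to the Piezo2+ OLs on UMIs, Lama1 was called with a log2 difference of -1.75 on 40 to 180 matched nuclei per library, and without control replicate 4 Lamb2 was called with -0.54. With this matching, 170 of 11477 genes had an edgeR adjusted p below 0.05, against 1721 of 12467 without it. The matched value of Lama2 is not reported here. Lama5, which did not pass the filter, was at 4.81 ± 1.84 CPM in Piezo2+ and 1.77 ± 0.452 CPM in Piezo2- OLs, and it was called higher without the filter and when control replicate 1 was left out. Of the listed genes, Mcam (-0.64, SE 0.10) and Col4a2 (-1.04, SE 0.32) were lower and Tln2 (0.56, SE 0.05) was higher in Piezo2+ OLs.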

How the data were processed

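Single-nucleus RNA-seq of mouse ON was analysed from the deposited count tables, in which, per the labels and the submitters' processing notes, the authors aligned reads to GRCm39 with Cell Ranger 7.0.0 and deposited UMI counts for each gene and barcode. The tables held all barcodes, so nuclei were called again with an expected number of 8000 and a test against the outside RNA at a false discovery rate of 0.01. Nuclei with under 200 genes or over 5% mitochondrial UMIs, outliers in depth and the highest doublet scores (0.8% per 1000 nuclei, with Scrublet in scanpy 1.11.5) were left out. The study's own cell type calls were not used here, so types may differ from it. Clustering (3000 variable genes, 30 components, 15 neighbours, resolution 3) gave 51 clusters, with 83 genes held out (the members, the lists, Piezo1, Piezo2, Olig2 and Cspg4). A cluster took the name of a marker list once 3 or more of its markers stood out, and 10 clusters with few UMIs, mixed markers or conflicting leading genes stayed unnamed and outside the tests. Of the 33696 genes, 98.48% matched the annotation.

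UMIs were summed per library and cell type, for sums of at least 10 nuclei and 1000 counts, and tested with edgeR 4.0.16 (quasi-likelihood, R 4.3.3) on summed counts with a filter on low counts. DESeq2 1.42.0, no filter, each library left out, ambient subtraction, thinned nuclei and other settings were alternatives, and 3 were added after seeing the data, of which 2 concern the OL subclusters and 1 is clustering with another seed (51 clusters, with 97.63% of nuclei and 99.93% of OLs given the same type). A call needed an adjusted p below 0.05 together with a log2 difference beyond 0.5 in either direction. The scripts were tested on simulated data. Intervals on the log2 scale cover the spread between pools. The members and gene lists were chosen with earlier results of these data known. Named list genes were the leading 2 called higher in each cell type, and most similar genes the 3 with the highest r, apart from some that are not reported here.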

Additional observations from a re-analysis of the deposited data

Results flagged for a closer look

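In 122 groups of 4 libraries, 1 library stood apart from the other 3 in 10 groups, where chance sets about 1 in 20 groups apart. In OLs, replicate 10 of the libraries labelled cKO had Lama2 at 102 CPM while the others had 123 to 124 CPM, and Lama1 at 1.76 CPM while the others had 3.30 to 3.44 CPM. In OPCs, replicate 12 of the libraries labelled cKO was high for Lama1 (62.4 CPM, others 7.23 to 13.0 CPM), and the same library was high for Lamc1 in neurons (98.5 CPM, others 35.5 to 40.8 CPM). Replicate 11 of that group was low for Itgb1 in BAMs (92.4 CPM, others 180.1 to 195 CPM). Control replicate 1 was high for Lama1 in fibroblasts (405 CPM, others 193 to 216 CPM) and in endothelial cells (242 CPM, others 67.2 to 94.1 CPM), and had Lama2 at 0 CPM in committed OPCs, where the others had 129.9 to 137 CPM. Control replicate 2 was low for Dag1 in endothelial cells (35.3 CPM, others 86.3 to 95.4 CPM) and high for Lamb1 in fibroblasts (28.4 CPM, others 22.5 to 23.0 CPM). Some of these sums were small. Committed OPCs of control replicate 1 had 13 nuclei, and 3 UMIs make 44.3 CPM there. Endothelial cells of control replicate 2 had 40 nuclei, and neurons of replicate 12, labelled cKO, had 19.

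In 3 of 20 comparisons of the genotype effect between cell types the libraries did not overlap. No share over all genes is given for this count, and the comparisons of Lama2 use the same OL values. For Lama2 the effect in OLs was below that in fibroblasts by a log2 difference of -0.82 and below that in astrocytes by -0.57, and for Itga6 it was above that in fibroblasts by 0.82. Each had an exact two-sided permutation p = 0.0286 with n = 4 each, the smallest possible, and an adjusted value of 0.190. That adjusted value could fall below 0.05 only with most of the 20 comparisons at the smallest p. The control levels of Itga6 were below those of the outside RNA, at 0.127 times in OLs and 0.297 times in fibroblasts.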

How the results depend on the processing

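For 205 results, 2135 alternatives were compared. Of these alternatives, 203 for the main counts and values and 1824 for single genes kept their side of the threshold or stayed within their spread. For main results and single genes, 9 and 31 alternatives were weaker, 0 and 24 stronger, 6 and 36 moved, and 0 and 2 reversed. Among all alternatives, 130 differences, called under neither setting, changed sign. The call of Lama2 in OLs was lost without replicate 11 of the libraries labelled cKO, and over all libraries left out in turn its log2 difference ranged from -0.79 to -0.67, so that 0 to 1 members were called in OLs. The difference in the thinned share of OLs with a Lama2 UMI ranged from -5.89 to -5.00 percentage points with 1 library left out, where the smallest exact permutation p for 3 against 4 is 0.0571. With an outside profile subtracted, 12 pairs of gene and cell type lost a call and 3 gained one. After this 11 pairs were called lower in place of 22. With libraries labelled cKO in place of the controls, Lamb2 in committed OPCs turned to -1.76, and by DESeq2 Lama5 in OLs turned to -0.77. In Piezo2+ against Piezo2- OLs 1 member was called with matched UMIs and 1 without a filter on low counts, and 0 to 1 with 1 library left out. Over all genes, OLs had 12 called, 51 without the filter, 57 by DESeq2 and 8 to 19 with 1 library left out. OPCs had 6 called, 59 without the filter, 13 by DESeq2, 0 after subtraction and 0 to 7 with 1 library left out, and microglia 4, 10, 2, 0 and 1 to 5. Where 0 genes were called, counts without the filter and by DESeq2 were 33 and 8 in astrocytes, 96 and 0 in fibroblasts, 43 and 0 in endothelial cells, 35 and 0 in BAMs, 63 and 1 in neurons and 5 and 0 in committed OPCs. Clustering with another seed, chosen after seeing the data, left 89 of the 90 pairs of gene and cell type called or not called as before (Lama2 in OPCs lost its call, -0.64) and the call of Lama2 in OLs. The causes were not tested.

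No paired analysis was possible because the genotype groups share no replicate numbers. The library was a replicate block in the tests between cell types, where 88 of 90 pairs were called or not called alike without the block and Lama2 in OPCs (-0.70) and Dag1 in BAMs (-0.69) lost it, and in Piezo2+ against Piezo2- OLs, where 388 genes were called with the block and 55 without it. Lama2 in that comparison had a log2 difference of -0.27 without the block, with an edgeR adjusted p = 0.472.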
